A study of Mus musculus with 12 samples.

Results

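Oxidative phosphorylation is carried by 5 protein complexes of the inner mitochondrial membrane. Complexes I and II take electrons from NADH and succinate, complexes III and IV pass them on to oxygen, and complex V, the ATP synthase, uses the resulting proton gradient to make ATP. Most subunits are encoded in the nucleus and the remainder in mitochondrial DNA. Hepatocytes are rich in mitochondria and rely on this system for gluconeogenesis, urea synthesis and other work that consumes ATP. The genes described here were taken by symbol, as all Nduf subunit genes, Sdha to Sdhd, Uqcr genes, Cyc1, Cox4 to Cox8 genes and Atp5 genes, with 3 pseudogene symbols left out. They are 81 of the 24296 genes with a symbol in the deposited table, with 36 in complex I, 4 in complex II, 9 in complex III, 16 in complex IV and 16 in complex V. The name rule does not take Ndufab1 or Atpif1, and it counts Ndufa4 in complex I, although its protein is now assigned to complex IV. It also puts each Atp5 gene in complex V by symbol alone, among them Atp5s, whose place in the complex was not examined.

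Liver RNA of 12 male C57/BL6N mice was sequenced, with 3 livers in each of 4 groups. Control mice were wild type without CCl4, and whether they were given the oil is not stated in the sources used here. All other mice received a solution of CCl4 in olive oil, 5 mL/kg of it intraperitoneally 2 times a week for 8 weeks. This treatment causes liver fibrosis. CCl4 alone made up the model group. From week 5, a further group was also given silibinin, the positive-control drug, and another was given phloridzin, a plant glucoside, at its high dose. Nothing in the sources used here shows that livers of a group are independent beyond their labels, so p-values measure only the spread between these livers, which may be technical. The values are FPKM, fragments scaled to transcript length and library size, summed over all 348 transcripts of the 81 genes. Levels can be compared between genes only roughly, since how reads shared with pseudogenes or between transcripts were assigned is not given. Library size, worked out from the steps between low values, ran from 83.7 to 111 in units of 1e6 fragments and was lowest in model liver 1. In whole liver RNA, a lower level from fewer cells of a type and from less RNA per cell cannot be told apart.

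The 81 genes summed to 4441, 5518 and 4339 in control livers, 4283, 4678 and 5307 in model livers, 5053, 5689 and 5271 in silibinin livers, and 6262, 5624 and 5377 in phloridzin livers, in FPKM. The control and model livers overlapped, with means of 4766 ± 653 and 4756 ± 516 FPKM (SD, n = 3 livers each). The silibinin and phloridzin groups had means of 5338 ± 323 and 5754 ± 457 FPKM (SD, n = 3 livers each). Every phloridzin liver was above every model liver, the silibinin and model livers overlapped, and control liver 2 was above phloridzin liver 3. The 81 genes held between 1.39% and 1.89% of the FPKM of all genes in a liver, lowest in control liver 3 and highest in phloridzin liver 1. Control liver 2 stood above the other control livers in all 5 complexes, and model liver 1, the shallowest library, was the lowest model liver in all 5.

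Complex I summed to 1068, 1269.8 and 1063 in control livers, 916, 1026 and 1152 in model livers, 1105, 1205 and 1156 in silibinin livers, and 1417, 1232 and 1189 in phloridzin livers, in FPKM. All phloridzin livers were above the highest model liver, and the mean of the model group was 0.91 times that of the control group. Complex II summed to 295, 369.8 and 251 in control livers, 267, 274 and 330.3 in model livers, 357, 389 and 351 in silibinin livers, and 384, 374 and 334 in phloridzin livers, in FPKM. Every silibinin and phloridzin liver was above every model liver, with mean ratios to the model group of 1.26 and 1.25. Complex III summed to 653, 826 and 672 in control livers, 659, 712 and 809 in model livers, 742, 855 and 795 in silibinin livers, and 986, 854 and 823 in phloridzin livers, in FPKM. The control and model means were 717 ± 95.3 and 727 ± 76.2 FPKM (SD, n = 3 livers each), and the phloridzin livers were all above the highest model liver. Complex IV summed to 979, 1212 and 924 in control livers, 1010.2, 1067 and 1178 in model livers, 1054, 1248 and 1129.7 in silibinin livers, and 1329, 1225 and 1113 in phloridzin livers, in FPKM. The groups overlapped, and the phloridzin mean was 1.13 times the model mean. Complex V summed to 1447, 1839.8 and 1429 in control livers, 1432, 1599 and 1838 in model livers, 1795, 1992 and 1839 in silibinin livers, and 2147, 1938 and 1919 in phloridzin livers, in FPKM. No phloridzin liver was under a control or model liver, and the phloridzin mean was 1.23 times the model mean. With Ndufa4 moved to complex IV, the ratio of the phloridzin to the model mean was 1.24 in complex I and 1.13 in complex IV. These sums carry no test.

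**Figure D1:**
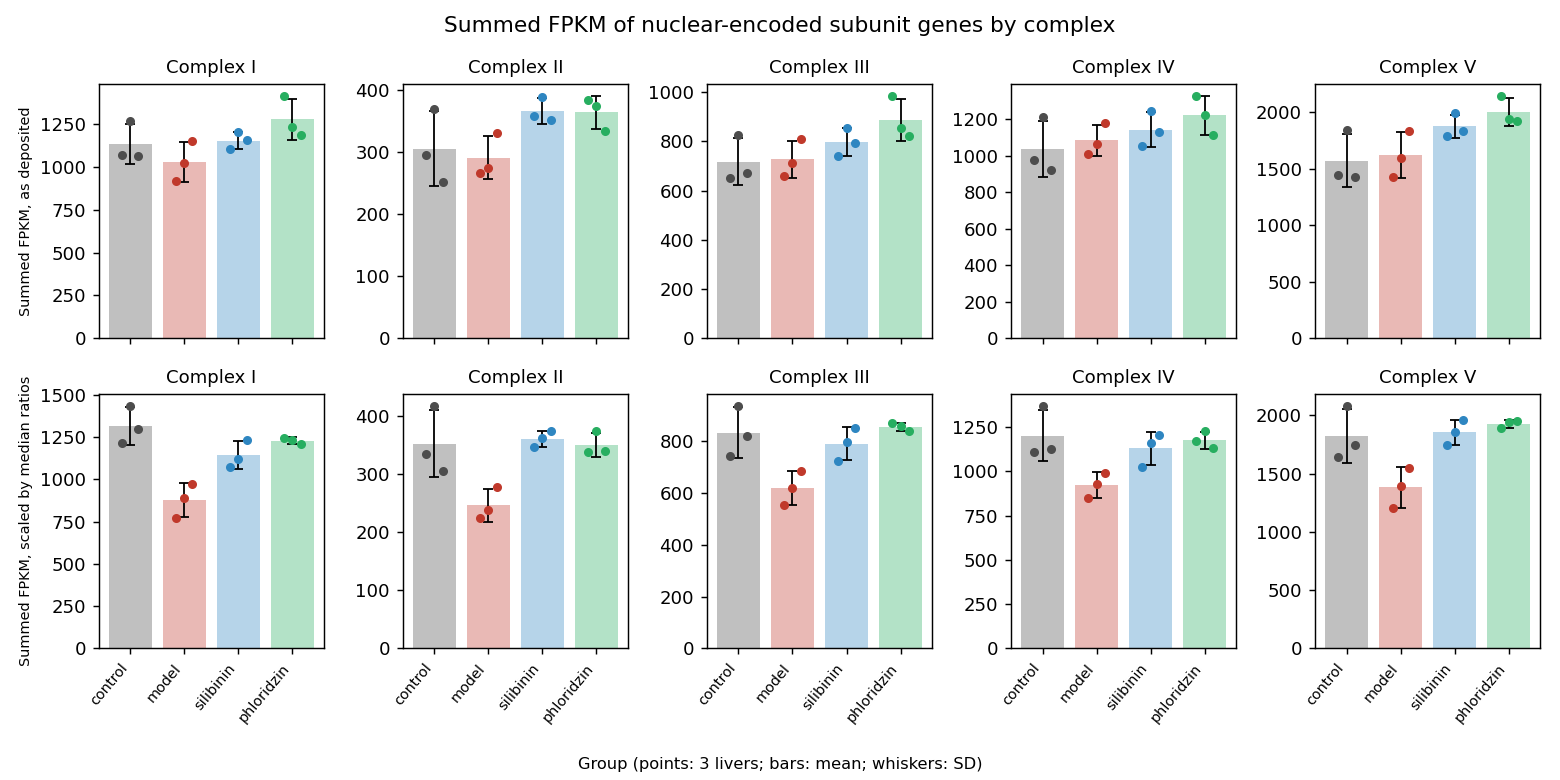
Summed FPKM of the subunit genes of each complex in each group (points, 3 livers; bars, mean; whiskers, SD), as deposited in the upper row and after scaling by median ratios in the lower row. As deposited, model and control overlap in every complex; after scaling, the model means are 0.667 to 0.768 times the control means.

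The scale matters for these comparisons. FPKM does not correct for library composition, and the median log2 difference of all 13158 tested genes between the model and control groups was 0.34 as deposited. It was -0.15 for silibinin against model and -0.11 for phloridzin against model. Scaling the livers by median ratios, by factors from 0.82 in control liver 3 to 1.19 in model liver 1, brought these medians to 0.01, 0.01 and 0.02. Calls and their counts are therefore given on both scales. Differences of single genes are as deposited unless scaling is named. All log2 differences are on the log2(FPKM + 1) scale, which understates the change of genes with low values. Of the 81 genes, 77 had a mean summed FPKM of at least 0.5 and were tested in the fit of all 13158 genes.

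The comparison of the model group with the control group asks how CCl4 injury moved the subunit genes. As deposited, they had a median log2 difference of -0.03, which was -0.36 relative to the median of all tested genes. Ndufa10 and Cox7a1 were higher in the model group at an adjusted p under 0.05 (limma, Benjamini-Hochberg), 2 of 77 subunit genes beside 31.1% of all tested genes. No subunit gene was lower at this threshold, beside 3.8% of all tested genes, and at an unadjusted p under 0.05, 3 were higher and 3 lower, beside 40.2% and 5.59%. Cox7a1 had a control mean of 0.313 FPKM, under the filter, and was tested only through its level in the CCl4 groups. None passed with a log2 difference past 1, beside 10.5% of all tested genes. After scaling by median ratios, 28 of 77 (36.4%) were lower and 0 higher, beside 11.8% of all tested genes lower and 13.3% higher, and the median was -0.46. At an unadjusted p under 0.05 limma had 1 higher and 46 of 77 lower, beside 19.5% and 18% of all tested genes. The split of all called genes moved from 89.1% higher as deposited to 53.1% higher after scaling. Scaling by the upper quartile gave 20 lower and 0 higher subunit genes, beside 10.2% and 14.5% of all tested genes. The calls thus went from higher to lower with the scale, while the median of the subunit genes lay below that of all genes as deposited and with both scalings.

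Of the 28, 14 were in complex I (Ndufa1, Ndufa2, Ndufa9, Ndufb11, Ndufb2, Ndufb3, Ndufb9, Ndufc2, Ndufs1, Ndufs4, Ndufs7, Ndufv1, Ndufv2 and Ndufv3), 3 in complex II (Sdha, Sdhc and Sdhd), 4 in complex III (Cyc1, Uqcr11, Uqcrfs1 and Uqcrq), 2 in complex IV (Cox6a1 and Cox7a2l) and 5 in complex V (Atp5d, Atp5e, Atp5h, Atp5l and Atp5s). Single livers weighed on these counts. The scaled count of 28 was 8 without control liver 2, 9 without model liver 1 and 11 without model liver 2, and 18 with protein-coding transcripts only. For these refits, here and below, no share of all tested genes is given. Whether such a drop is particular to the subunit genes therefore cannot be read from the counts. As deposited, the count of 2 was 0 without model liver 2, 1 without control liver 1 or 2, model liver 3, silibinin liver 1 or 2 or phloridzin liver 2 or 3 and 5 without control liver 3. The estimates of the 77 genes ran from -0.55 to 0.80 as deposited.

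Silibinin against model and phloridzin against model ask how each drug moved the subunit genes under CCl4. Both share the 3 model livers, so their values stand side by side. As deposited, the median log2 difference of the 77 genes was 0.14 with silibinin and 0.29 with phloridzin, or 0.29 and 0.40 relative to all tested genes. With silibinin, Ndufa9 and Sdhd were higher, 2 of 77 beside 2.62% of all tested genes, and 0 were lower beside 11.4%. With phloridzin, Ndufa9, Ndufv2 and Sdhd were higher, 3 of 77 beside 2.5% of all tested genes, and 0 were lower beside 10.4%. At an unadjusted p under 0.05, 5 were higher and 0 lower with silibinin, beside 6.74% and 22.5% of all tested genes. With phloridzin, 19 were higher and 1 lower at this threshold, beside 6.98% and 20.8%. None passed with a log2 difference past 1, beside 4% and 3.52% of all tested genes. The estimates were above 0 for 60 of 77 genes with silibinin and 71 of 77 with phloridzin, beside 34.2% and 38.9% of all tested genes.

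After scaling by median ratios, 5 genes were higher with silibinin, beside 5.56% of all tested genes, and 15 with phloridzin, beside 4.72%. No subunit gene was lower with either drug, beside 6.48% and 6.27% of all tested genes. The scaled fit at an unadjusted p under 0.05 had 31 of 77 higher and 0 lower with silibinin, beside 13% and 13.47%, and 46 higher and 0 lower with phloridzin, beside 13.4% and 13.6%. Scaling by the upper quartile gave 12 higher with silibinin and 16 with phloridzin, beside 6.35% and 5.09%. The 5 with silibinin and median ratios were Sdha, Ndufa9, Sdhd, Cox7b and Ndufb11. The 15 with phloridzin were Ndufa1, Ndufa9, Ndufb4, Ndufb11, Ndufc2, Ndufs3, Ndufs4, Ndufv2, Sdhd, Cyc1, Cox7b, Atp5c1, Atp5e, Atp5j2 and Atp5l. The scaled count with silibinin was 2 without model liver 1 or 2 or silibinin liver 1, 2 or 3, 8 without control liver 3 and 11 without model liver 3. The scaled count with phloridzin was 6 without phloridzin liver 2, 7 without model liver 1 and 8 without model liver 2. As deposited, the silibinin count was 0 without model liver 1 or 2 or silibinin liver 2 or 3 and 1 without control liver 1, silibinin liver 1 or phloridzin liver 2, and the phloridzin count was 0 without control liver 1, model liver 2 or silibinin liver 1, 2 or 3, 1 without control liver 3, model liver 1 or phloridzin liver 1 or 2 and 8 without model liver 3. The median of the subunit genes was above 0 with either drug on both scales.

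Between the drugs, no subunit gene passed in phloridzin against silibinin (limma, Benjamini-Hochberg), beside 0.0228% of all tested genes. At an unadjusted p under 0.05, 2 of 77 were higher with phloridzin and 0 lower, beside 2.53% and 1.22% of all tested genes. They were Ndufa3 and Ndufb7, both with unstable estimates. The median log2 difference was 0.14 beside 0.03 over all tested genes. The scaled limma fit also called 0, beside 0.0228% of all tested genes, with the same 2 genes at an unadjusted p under 0.05, beside 4.03% at that threshold. A p-value above the threshold does not show that the drugs acted alike. Against the control group, the silibinin group had 1 higher gene, Cox7a1, beside 4.59% of all tested genes, and 0 lower beside 0.433%, with 8 of 77 higher and 0 lower at an unadjusted p under 0.05, beside 19.2% and 2.31%. The phloridzin group had 4 higher genes, Cox6b2, Cox7a1, Atp5o and Ndufs4, beside 7.51% of all tested genes, and 0 lower beside 0.479%, with 27 of 77 higher and 0 lower at an unadjusted p under 0.05, beside 22.5% and 2.14%. With the fold cutoff, Cox7a1 passed in phloridzin against control, 1 of 77 beside 3.02% of all tested genes. Cox7a1 and Cox6b2 had control means of 0.313 and 0.286 FPKM, under the filter, so these genes were tested only through their level in other groups. After scaling by median ratios, 0 subunit genes passed in silibinin against control in limma, beside 4.34% of all tested genes, and Cox7a1 alone in phloridzin against control, beside 5.91%. Scaled and at an unadjusted p under 0.05, 2 were higher and 6 lower in silibinin against control, beside 11.8% and 8.91% of all tested genes. In phloridzin against control 3 were higher and 3 lower, beside 13.3% and 9.19%. The median log2 differences against control were 0.13 for silibinin and 0.31 for phloridzin as deposited, and -0.09 and 0.05 after scaling. Among alternatives that leave out a liver, the count for silibinin against control was 0 without control liver 1, 2 or 3, model liver 1, 2 or 3 or silibinin liver 1, 2 or 3 and 2 without phloridzin liver 1 or 2, and that for phloridzin against control was 0 without control liver 1 or 2, 1 without phloridzin liver 1 and 2 without phloridzin liver 2.

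**Figure D2:**
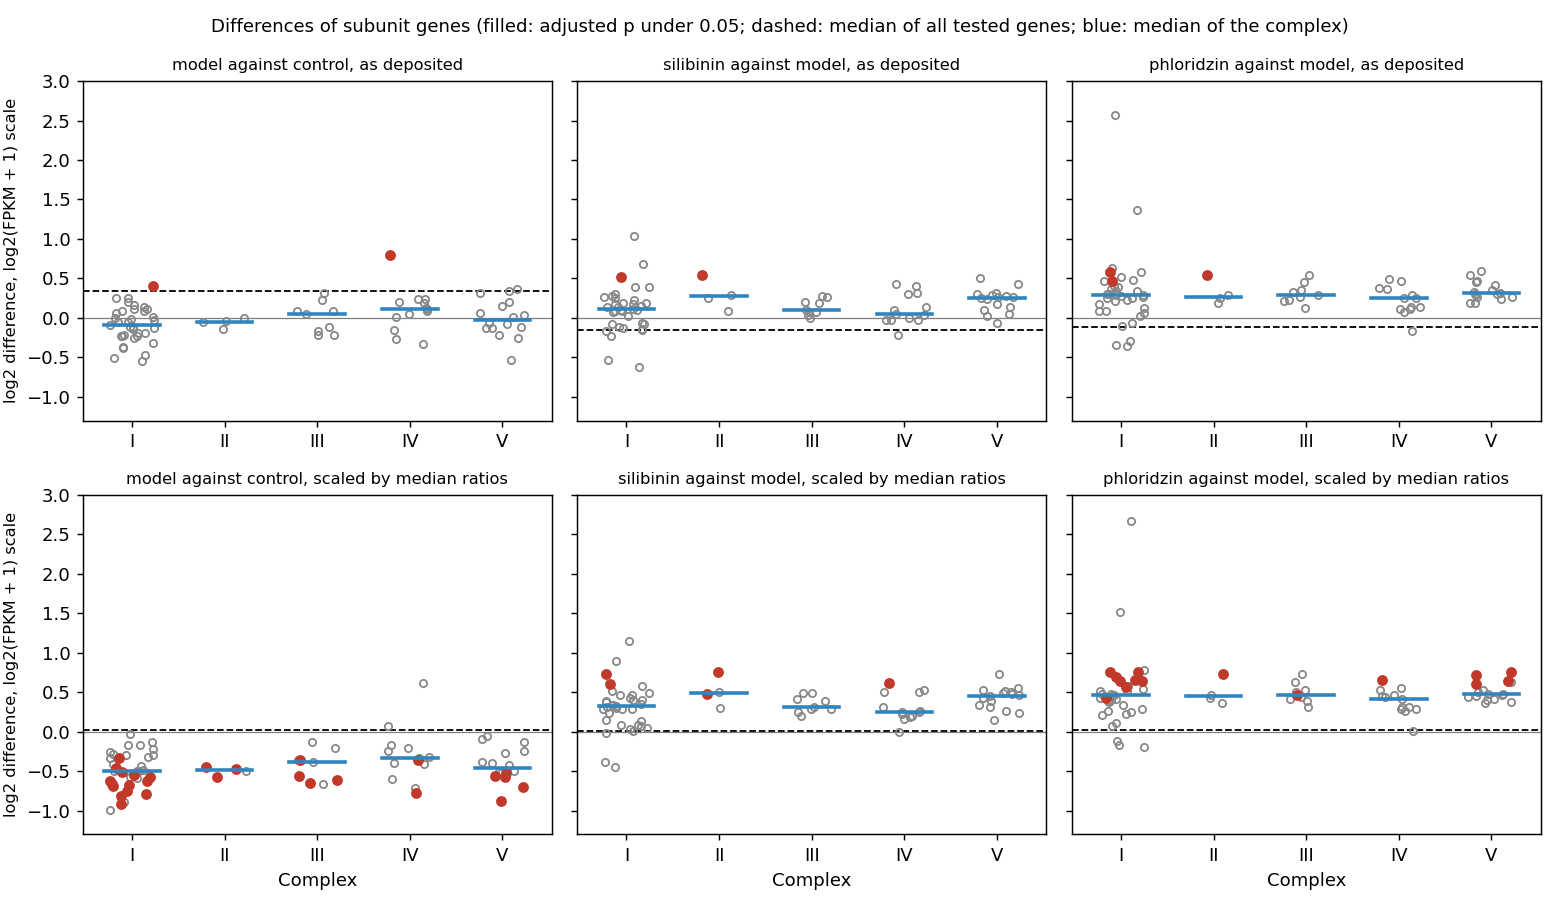
Log2 difference of each subunit gene by complex for 3 comparisons, as deposited above and after scaling by median ratios below (filled, adjusted p under 0.05; blue bars, median of the complex; dashed line, median of all tested genes). As deposited, the medians of model against control lie near 0, under the dashed line at 0.34; after scaling they lie between -0.50 and -0.33.

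Factors such as NRF1, the ETS factor GABP, YY1 and the estrogen-related receptors are known to act on genes of this system, and their motifs were looked up in the promoters. RefSeq promoters of mouse build GRCm38.p6, from 250 bases before to 50 bases after the start, were matched to 66 of the 81 genes by Entrez ID, with 71 promoters in all. Both strands were searched for 9 motifs. A pattern bound by NRF1, GCGC and TGCGC with any base between them, was in 25.4% of the 71 promoters and 4.6% of all 32851 RefSeq promoters. With A as the base between, the shares were 7.04% and 0.971%. The ETS-type motif CCGGAAG was in 22.5% and 8.86%, and the YY1-type motif AAGATGG in 15.5% and 6.34%. The ERR-type motif TCAAGGTCA was in 2.82% and 0.423%, and TGACCTT, which overlaps it on the other strand, in 11.3% and 4.72%. The CRE-type motif TGACGTCA was in 5.63% and 1.79%. TATAAA was in 9.86% of the 71 and 13.6% of all promoters, and the GC box GGGCGG in 38% and 35.7%. A match is a run of letters and not a bound site.

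Ndufa9, Sdhd and Cox7a1 passed in more than 1 comparison, though Cox7a1 was tested only through its level in the CCl4 groups. Their promoters are shown for that reason, a choice made after their values were seen. The comparisons share the model livers for Ndufa9 and Sdhd and the control livers for Cox7a1, so the calls are not independent. These promoters lie at chr6:126849095-126849394 on the minus strand, chr9:50603800-50604099 on the minus strand and chr7:30183921-30184220 on the plus strand of GRCm38.p6, and capitals mark matches to any of the 9 motifs. Ndufa9 holds the YY1-type motif at its 3′ end. Sdhd holds the NRF1-type, ETS-type, GC box and ERR-type motifs, and Cox7a1 holds none of the 9.
Ndufa9: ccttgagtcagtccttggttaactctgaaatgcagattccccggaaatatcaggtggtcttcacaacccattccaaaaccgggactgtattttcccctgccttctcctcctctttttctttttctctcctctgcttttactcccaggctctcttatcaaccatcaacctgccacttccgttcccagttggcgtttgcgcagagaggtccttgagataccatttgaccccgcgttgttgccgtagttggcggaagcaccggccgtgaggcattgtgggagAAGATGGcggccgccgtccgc
Sdhd: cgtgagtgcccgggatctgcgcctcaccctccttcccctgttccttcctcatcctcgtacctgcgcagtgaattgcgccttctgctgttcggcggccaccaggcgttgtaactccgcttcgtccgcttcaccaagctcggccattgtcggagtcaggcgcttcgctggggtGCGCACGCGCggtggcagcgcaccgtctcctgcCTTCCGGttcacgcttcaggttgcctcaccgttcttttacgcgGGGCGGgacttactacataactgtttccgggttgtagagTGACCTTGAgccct
Cox7a1: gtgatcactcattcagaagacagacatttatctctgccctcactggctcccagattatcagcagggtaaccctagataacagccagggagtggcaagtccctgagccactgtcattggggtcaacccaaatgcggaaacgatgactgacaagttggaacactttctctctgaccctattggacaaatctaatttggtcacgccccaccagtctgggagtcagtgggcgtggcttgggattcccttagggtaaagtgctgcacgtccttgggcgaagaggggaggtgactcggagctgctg

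In complex I, which oxidises NADH, Ndufa9, an accessory subunit beside the quinone channel (chr6:126821721-126849136), had FPKM of 55.4, 68.1 and 53.5 in control livers, 44.7, 46.9 and 56.3 in model livers, 69.6, 75.9 and 67.5 in silibinin livers, and 75.4, 68.7 and 62.1 in phloridzin livers. All 6 livers given a drug were above all 3 model livers, while control and model livers overlapped. The log2 difference was 0.52 (SE 0.14, Benjamini-Hochberg adjusted p = 0.032 in limma) with silibinin and 0.47 (SE 0.14, Benjamini-Hochberg adjusted p = 0.0499 in limma) with phloridzin, the latter at the edge of the threshold. After scaling they were 0.73 and 0.65 (limma adjusted p = 0.0042 and adjusted p = 0.0078). Ndufv2, an iron-sulfur subunit of the NADH-oxidising part (chr17:66078795-66101559), had FPKM of 37.7, 37 and 35.2 in control livers, 26.6, 36.1 and 34 in model livers, 37.6, 40.3 and 37.1 in silibinin livers, and 53.5, 57 and 37.4 in phloridzin livers. Phloridzin livers 1 and 2 were the highest of the 12, and phloridzin liver 3 was within the range of the control group. Its log2 difference for phloridzin against model was 0.59 (SE 0.17, Benjamini-Hochberg adjusted p = 0.044 in limma), and 0.76 after scaling (limma adjusted p = 0.014). Ndufa10, an accessory subunit of the membrane arm (chr1:92439010-92473860), had FPKM of 30.3, 37.9 and 32.6 in control livers, 42.1, 41.7 and 50.5 in model livers, 46, 45.3 and 37.4 in silibinin livers, and 47.2, 40.1 and 40.6 in phloridzin livers. The model livers were all above the control livers, with a log2 difference of 0.40 (SE 0.14, Benjamini-Hochberg adjusted p = 0.043 in limma). It was -0.03 after scaling by median ratios and -0.55 with protein-coding transcripts only, so this call depended on the scale and on transcripts that are not coding.

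As deposited, each of these calls was lost in some alternatives. For silibinin against model, Ndufa9 did not pass in 6 of 22 alternatives, among them those without model liver 1 or 2 or silibinin liver 1, 2 or 3. For phloridzin against model it did not pass in 16 of 22 alternatives, among them those without control liver 1 or 3, model liver 1 or 2, silibinin liver 1, 2 or 3 or phloridzin liver 1, 2 or 3. Its estimates ran from 0.46 to 0.77 and from 0.41 to 0.66. Ndufv2 did not pass in 16 of 22 alternatives, among them those without control liver 1, 2 or 3, model liver 1, 2 or 3, silibinin liver 1, 2 or 3 or phloridzin liver 1 or 2. Its estimates ran from 0.35 to 0.77. Ndufa10 did not pass in 15 of 22 alternatives, among them those without control liver 1 or 3, model liver 1, 2 or 3, silibinin liver 1 or 2 or phloridzin liver 2 or 3, and its estimates ran from -0.55 to 0.49.

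Among the catalytic core, Ndufv1, which binds NADH, had FPKM of 42.5, 45.7 and 29 in control livers, 33.2, 32.9 and 34.7 in model livers, 35, 41.2 and 50.6 in silibinin livers, and 33.5, 36.2 and 36 in phloridzin livers. Control and model livers overlapped, and control liver 3 was the lowest of the 12. Its log2 difference of model against control was -0.19 as deposited (limma, Benjamini-Hochberg adjusted p = 0.44) and -0.62 after scaling (limma adjusted p = 0.035). Ndufs1, the largest iron-sulfur subunit, had FPKM of 34.7, 35.5 and 21.7 in control livers, 26.2, 20.2 and 25.5 in model livers, 21.3, 32.1 and 14.7 in silibinin livers, and 36.8, 31.9 and 21.6 in phloridzin livers. Silibinin liver 3 was the lowest, and the log2 difference of model against control was -0.32 (limma, Benjamini-Hochberg adjusted p = 0.43) and -0.75 after scaling (limma adjusted p = 0.049). Ndufs3, a subunit at the base of the quinone site, had FPKM of 44.3, 54.2 and 42 in control livers, 51.1, 51.1 and 53.9 in model livers, 54.2, 58.7 and 56.2 in silibinin livers, and 68.3, 59.2 and 58.9 in phloridzin livers. The phloridzin livers were above every liver of the control and model groups, and the log2 difference of phloridzin against model was 0.25 as deposited (limma, Benjamini-Hochberg adjusted p = 0.22) and 0.43 after scaling (limma adjusted p = 0.03). Ndufs7 and Ndufs8 carry the last iron-sulfur clusters before quinone. Ndufs7 ranged from 31.7 to 50.1 FPKM and Ndufs8 from 3.69 to 13.3 FPKM over the 12 livers, with overlapping groups. For model against control, Ndufs7 was at -0.14 as deposited (limma adjusted p = 0.52) and -0.58 after scaling (limma adjusted p = 0.033), and Ndufs8 at -0.51 (limma adjusted p = 0.36) and -0.90 (limma adjusted p = 0.11). Ndufs4, an accessory subunit of the NADH-oxidising part, had FPKM of 17.5, 18.5 and 18.5 in control livers, 17.9, 18.2 and 22.1 in model livers, 21.7, 21.5 and 21.3 in silibinin livers, and 29.7, 24.5 and 23.3 in phloridzin livers. The phloridzin livers were the highest of the 12, with a log2 difference from the control group of 0.48 (SE 0.12, Benjamini-Hochberg adjusted p = 0.04 in limma), which was 0.23 after scaling (limma adjusted p = 0.25). It did not pass in 13 of 22 alternatives, among them those without control liver 1, 2 or 3, model liver 2, silibinin liver 1 or 2 or phloridzin liver 1 or 2, and its estimates ran from 0.23 to 0.55.

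In the distal membrane arm, which holds the Ndufb subunits, Ndufb11 had FPKM of 84.1, 111 and 76.3 in control livers, 58.9, 54.7 and 81.8 in model livers, 84.9, 83.6 and 84.9 in silibinin livers, and 103, 100.2 and 86.2 in phloridzin livers. Model livers 1 and 2 were the lowest of the 12, and model liver 3 overlapped with the control group. As deposited its log2 difference of model against control was -0.47 (limma, Benjamini-Hochberg adjusted p = 0.063), and after scaling -0.91 (limma adjusted p = 0.0037), the largest fall among the 28. Ndufb2 had FPKM of 23.1, 31.9 and 19.4 in control livers, 18.7, 17.6 and 18.8 in model livers, 23.3, 21.6 and 22.7 in silibinin livers, and 28.7, 22.1 and 19.2 in phloridzin livers. The model livers were all under the lowest control liver. Its log2 difference was -0.38 as deposited (limma adjusted p = 0.13) and -0.81 after scaling (limma adjusted p = 0.0048). Ndufa2, an accessory subunit of the NADH-oxidising part, was at -0.36 as deposited (limma adjusted p = 0.104) and -0.79 after scaling (limma adjusted p = 0.0061).

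Estimates of several genes were unstable between transcripts, so their differences cannot be read as changes of the gene. Ndufb7 had FPKM of 0.622, 0.52 and 23.6 in control livers, 12.3, 0.742 and 0.644 in model livers, 0.484, 0.714 and 3.93 in silibinin livers, and 24.5, 15.1 and 18.6 in phloridzin livers. Its main coding transcript was at most 0.016 FPKM in 6 of the 12 livers, and it was at 23.4 FPKM in control liver 3 and 24 FPKM in phloridzin liver 1. Ndufa3 had FPKM of 4.76, 2.91 and 5.51 in control livers, 9.52, 3.89 and 3.34 in model livers, 3.16, 3.68 and 2.13 in silibinin livers, and 7.05, 21.6 and 20.2 in phloridzin livers. Its high livers, phloridzin 2 and 3 and model 1, were those in which the coding transcript was listed high. By a rule set after the values were seen, Ndufa3, Ndufa12, Ndufb7, Ndufb10, Cox4i1 and Atp5j were unstable, 6 genes. None of them was called as deposited or with median ratios, so the counts of calls hold none of them. Among counts at an unadjusted p under 0.05 as deposited, Ndufa12 is in those of silibinin against model and against control, Ndufa3 in those of phloridzin against each other group, and Ndufb7 in those of phloridzin against model and silibinin.

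**Figure D3:**
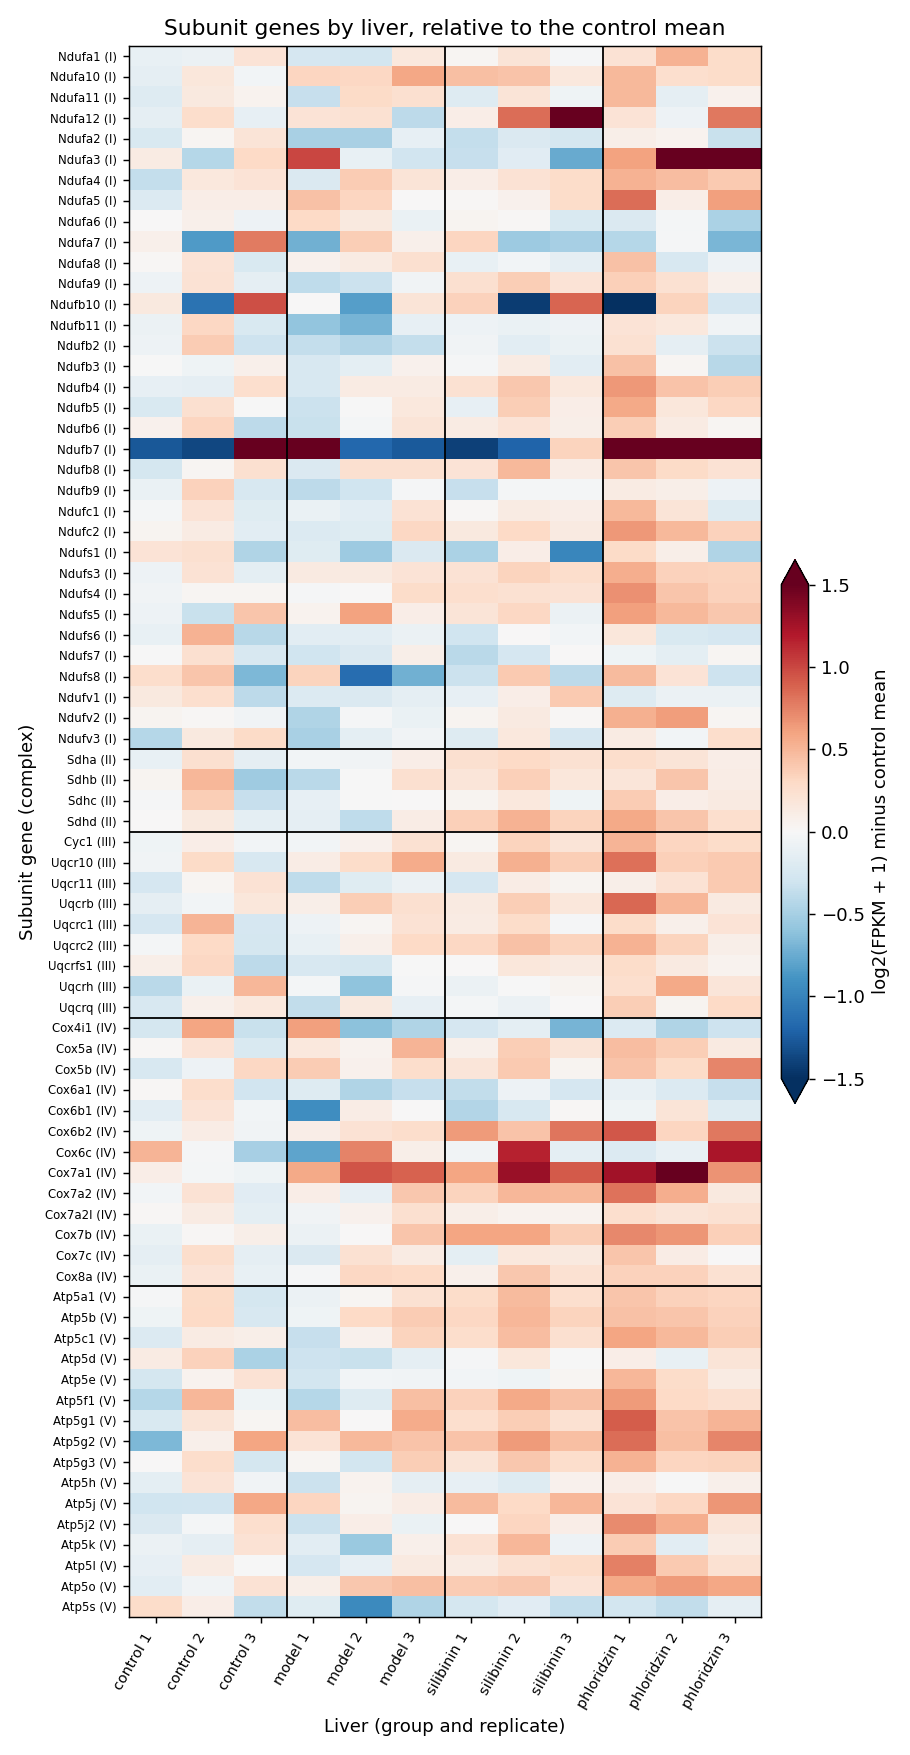
Log2(FPKM + 1) of 76 of the 77 tested subunit genes in each liver, with 1 not shown, minus the mean of the control group, as deposited (genes by complex down, livers across). Phloridzin liver 1 is above the control mean for most genes and control liver 2 stands above the other control livers, while Ndufb7 and Ndufb10 swing within groups.

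Complex II, succinate dehydrogenase, is also an enzyme of the citrate cycle. Sdhd, its small membrane anchor (chr9:50596357-50603812), had FPKM of 88.9, 97.9 and 79.5 in control livers, 80.3, 67.6 and 95.5 in model livers, 114, 127 and 111 in silibinin livers, and 132, 118 and 105 in phloridzin livers. Every liver given a drug was above every control and model liver. The log2 difference was 0.54 (SE 0.15, Benjamini-Hochberg adjusted p = 0.041 in limma) with silibinin and 0.55 (SE 0.15, Benjamini-Hochberg adjusted p = 0.042 in limma) with phloridzin. After scaling they were 0.75 and 0.72 (limma adjusted p = 0.0052 and adjusted p = 0.0067). As deposited with silibinin, Sdhd did not pass in 11 of 22 alternatives, among them those without control liver 1, model liver 1 or 2, silibinin liver 1, 2 or 3 or phloridzin liver 2. With phloridzin it did not pass in 14 of 22 alternatives, among them those without control liver 1 or 2, model liver 1 or 2, silibinin liver 1, 2 or 3 or phloridzin liver 1, 2 or 3. Its estimates ran from 0.42 to 0.78 and from 0.42 to 0.74. Sdha, the flavoprotein, had FPKM of 97.5, 124 and 95.8 in control livers, 102, 101 and 113 in model livers, 125, 129 and 124 in silibinin livers, and 126, 120.2 and 113 in phloridzin livers. The silibinin livers were above every model liver. Its log2 difference with silibinin was 0.26 as deposited (limma, Benjamini-Hochberg adjusted p = 0.21) and 0.47 after scaling (limma adjusted p = 0.03). Sdhb, the iron-sulfur subunit, had FPKM of 83.7, 115 and 55.7 in control livers, 61.2, 80.6 and 96.4 in model livers, 92.3, 104 and 91.3 in silibinin livers, and 92.1, 109 and 87.5 in phloridzin livers. Its groups overlapped, and control livers alone spanned the range of the other groups. Sdhc, the other anchor, had FPKM of 25.2, 33.2 and 20 in control livers, 23.3, 25.4 and 25.7 in model livers, 26.4, 28.6 and 24.4 in silibinin livers, and 33.6, 27.4 and 28.2 in phloridzin livers. Its control livers spanned nearly the whole range of the 12.

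Complex III passes electrons from ubiquinol to cytochrome c. Cyc1, cytochrome c1, had FPKM of 44.7, 50.3 and 45.7 in control livers, 45.3, 48.9 and 55 in model livers, 47.7, 59.1 and 53.8 in silibinin livers, and 67.2, 58.7 and 57.1 in phloridzin livers. Each phloridzin liver was above every model liver, with a log2 difference of 0.29 as deposited (limma, Benjamini-Hochberg adjusted p = 0.17) and 0.47 after scaling (limma adjusted p = 0.03). Uqcrfs1, the Rieske iron-sulfur protein, had FPKM of 141, 165 and 101 in control livers, 113, 110.4 and 132 in model livers, 134, 149.7 and 146 in silibinin livers, and 161, 147 and 138 in phloridzin livers. Control and model livers overlapped. Uqcrc1 and Uqcrc2 are the core proteins that face the matrix. Uqcrc1 was at 93 ± 30.5, 93.7 ± 9.7, 98.7 ± 10.4 and 103 ± 7.34 FPKM, and Uqcrc2 at 89.5 ± 17.7, 94.7 ± 13.8, 114 ± 5.4 and 111 ± 16.6 FPKM (SD, n = 3 livers each, for control, model, silibinin and phloridzin). None of the 9 genes passed as deposited in any of the 6 comparisons.

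Complex IV, cytochrome c oxidase, has pairs of isoforms that differ between tissues. Cox7a1, the isoform of heart and muscle (chr7:30184144-30186078), had FPKM of 0.407, 0.282 and 0.251 in control livers, 0.944, 1.52 and 1.42 in model livers, 0.973, 2.23 and 1.48 in silibinin livers, and 2.13, 2.84 and 1.09 in phloridzin livers. All 9 livers given CCl4 were above all 3 control livers, at levels far under those of Cox7a2. The log2 difference was 0.80 (SE 0.24, Benjamini-Hochberg adjusted p = 0.024 in limma) in the model group, 0.94 (SE 0.24, Benjamini-Hochberg adjusted p = 0.048 in limma) in the silibinin group and 1.16 (SE 0.24, Benjamini-Hochberg adjusted p = 0.018 in limma) in the phloridzin group, each against the control group. After scaling it was 0.62 (limma adjusted p = 0.069) for model against control, 0.87 (limma adjusted p = 0.058) for silibinin against control and 1.07 (limma adjusted p = 0.024) for phloridzin against control. For model against control Cox7a1 did not pass in 7 of 21 alternatives, among them those without control liver 2 or 3 or model liver 2 or 3. For silibinin against control it did not pass in 14 of 21 alternatives, among them those without control liver 1, 2 or 3, model liver 1, 2 or 3 or silibinin liver 1, 2 or 3, and for phloridzin against control it did not pass in 6 of 21 alternatives, among them those without control liver 1, 2 or 3 or phloridzin liver 1 or 2. Its estimates ran from 0.62 to 1.75, 0.75 to 1.95 and 0.96 to 2.28 in the same order, each highest with a pseudocount of 0.1. The control mean of 0.313 FPKM was itself under the filter of 0.5, so the gene was tested through its level in the other groups. The same holds for Cox6b2, the testis isoform, with FPKM of 0.228, 0.389 and 0.243 in control livers, 0.378, 0.49 and 0.544 in model livers, 1.01, 0.725 and 1.24 in silibinin livers, and 1.45, 0.609 and 1.23 in phloridzin livers. The phloridzin livers were above the control livers, with a log2 difference of 0.68 (SE 0.16, Benjamini-Hochberg adjusted p = 0.032 in limma) and 0.60 after scaling (limma adjusted p = 0.053). This gene did not pass in 7 of 20 alternatives, among them those without control liver 1, 2 or 3 or phloridzin liver 1 or 3, and its estimates ran from 0.56 to 1.58, highest with a pseudocount of 0.1.

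Cox7a2, the liver isoform, had FPKM of 155, 187 and 142 in control livers, 172, 148 and 213 in model livers, 202, 227 and 225 in silibinin livers, and 282, 235 and 178 in phloridzin livers. The model livers overlapped with the control and the phloridzin livers. Cox6a2, the muscle isoform (chr7:128205435-128206387), had FPKM of 0, 0 and 0 in control livers, 1.3, 0.986 and 1.17 in model livers, 0.11, 0.226 and 0 in silibinin livers, and 0, 0.337 and 0.179 in phloridzin livers, and was under the filter on low values. It was listed at 0 in every control liver, and every model liver was above every drug-treated liver. An exact permutation test over livers, 2-sided, gave p = 0.1 for model against control, silibinin against model and phloridzin against model, the smallest that 3 livers against 3 can give. With no filter on low values, limma called it in these comparisons, at log2 differences of 1.104, -0.956 and -0.885. Its liver partner Cox6a1 had FPKM of 76, 89.9 and 61.3 in control livers, 65.3, 54.4 and 58.7 in model livers, 57.7, 70.8 and 62.6 in silibinin livers, and 69.2, 64.6 and 58.6 in phloridzin livers. Control and model livers overlapped, and the log2 difference was -0.33 as deposited (limma, Benjamini-Hochberg adjusted p = 0.12) and -0.77 after scaling (limma adjusted p = 0.0027). Cox8b, Cox4i2 and Ndufa4l2, isoforms of other tissues or conditions, were at most 0.226, 0.196 and 0.708 FPKM in any liver.

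Cox8a, with a mean of 216 FPKM over the 12 livers, was the most abundant subunit gene after Atp5b and Atp5a1, while Cox8b, Cox4i2 and Ndufa4l2 were the lowest. Cox7b had FPKM of 63.8, 69.4 and 72.7 in control livers, 64.3, 68.7 and 91.6 in model livers, 104, 104 and 88.7 in silibinin livers, and 114, 109 and 88.1 in phloridzin livers. With silibinin, livers 1 and 2 were above every model liver and liver 3 was not. Its log2 difference was 0.41 with silibinin and 0.47 with phloridzin as deposited (limma adjusted p = 0.12 and adjusted p = 0.082), and 0.62 and 0.65 after scaling (limma adjusted p = 0.023 and adjusted p = 0.02). Cox5a and Cox5b, subunits without isoform pairs in this set, had FPKM means for control, model, silibinin and phloridzin of 95.6, 113, 110.5 and 119, and of 8.58, 10.2, 9.95 and 12.3. Cox7a2l, which joins complexes III and IV into supercomplexes, had the smallest spread between livers of a group of the 77 genes, 0.10 on the log2 scale. Over the 77 genes the median of this within-group SD was 0.22, beside 0.24 over all tested genes. Cox4i1, the major liver isoform, had FPKM of 77.2, 140.1 and 73.5 in control livers, 142, 60 and 67.6 in model livers, 77.5, 83.8 and 57 in silibinin livers, and 80.2, 67.5 and 74.7 in phloridzin livers. Its high values in control liver 2 and model liver 1 went with 1 of its 3 coding transcripts. This transcript was at 90.3 FPKM in control liver 2 and 113 in model liver 1, and at most 14.2 in the other livers.

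**Figure D4:**
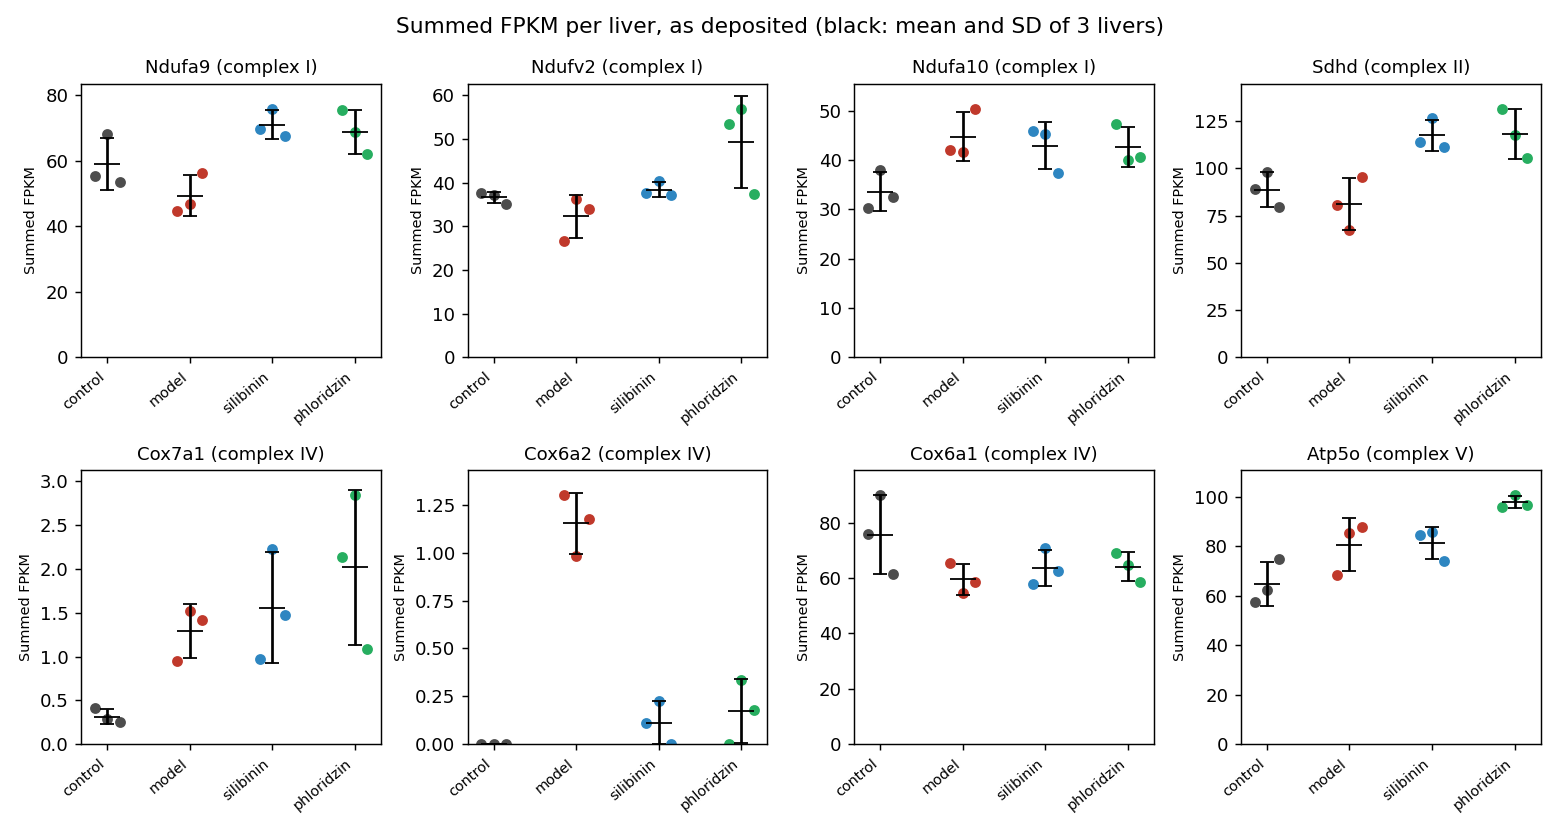
FPKM of 8 subunit genes in each liver, as deposited (points, livers; black, mean and SD of 3 livers). Sdhd and Ndufa9 are higher in every drug-treated liver than in every model liver, Cox7a1 is higher in every CCl4 liver than in every control liver, and Cox6a2 is listed at 0 in the control livers.

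Complex V makes ATP. Its catalytic subunits beta and alpha, Atp5b and Atp5a1, were the most abundant subunit genes. Atp5b had FPKM of 350.2, 450.0 and 308 in control livers, 349.5, 449.7 and 474 in model livers, 452, 517 and 461 in silibinin livers, and 495, 487 and 463 in phloridzin livers. Atp5a1 had FPKM of 257, 319 and 217 in control livers, 246, 266 and 306 in model livers, 317, 363 and 312 in silibinin livers, and 349, 332 and 325 in phloridzin livers. For Atp5b every drug-treated liver was above every control liver and the model livers overlapped with both, and for Atp5a1 every drug-treated liver was above every model liver. The log2 difference of Atp5a1 was 0.28 with silibinin and 0.30 with phloridzin, at Benjamini-Hochberg adjusted p = 0.3 and adjusted p = 0.27 in limma, and 0.49 and 0.48 after scaling (limma adjusted p = 0.06 and adjusted p = 0.068). Atp5o, the subunit that joins the catalytic head to the stalk (chr16:91925214-91931687), had FPKM of 57.3, 62.1 and 74.6 in control livers, 68.2, 85.4 and 87.9 in model livers, 84.3, 85.6 and 74 in silibinin livers, and 95.8, 101 and 96.8 in phloridzin livers. The phloridzin livers were the highest of the 12, with a log2 difference from the control group of 0.60 (SE 0.14, Benjamini-Hochberg adjusted p = 0.03 in limma), which was 0.33 after scaling (limma adjusted p = 0.23). It did not pass in 8 of 22 alternatives, among them those without control liver 1 or 2 or phloridzin liver 1 or 2, and its estimates ran from 0.33 to 0.70. Atp5l, a membrane subunit, had FPKM of 101, 121 and 110.4 in control livers, 92.4, 102 and 121 in model livers, 121, 129 and 133 in silibinin livers, and 187, 146 and 129 in phloridzin livers. All phloridzin livers were above every control and model liver, and the log2 difference from the model group was 0.54 as deposited (limma adjusted p = 0.053) and 0.72 after scaling (limma adjusted p = 0.013). The c ring is encoded by Atp5g1, Atp5g2 and Atp5g3, which give the same mature protein from different genes. Atp5g3, Atp5g1 and Atp5g2 had means over 12 livers of 164, 66.6 and 25 FPKM in this order, and none of them passed as deposited in any of the 6 comparisons. Atp5c1, the gamma subunit of the rotor, had means of 55.5, 57, 69.4 and 77.7 FPKM in the order control, model, silibinin and phloridzin.

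The subunit genes are short and abundant, and level went along with the difference over all genes. The median length of their main transcript was 738 bases, beside 2500.0 over all tested genes. Over all tested genes, the median log2 difference of model against control was 0.41 at 2 to 5 FPKM, -0.00 at 50 to 100 FPKM and -0.26 at 300 FPKM or more. In the classes of 20 to 50, 50 to 100 and 100 to 300 FPKM, with 20, 22 and 15 subunit genes, their medians were -0.09, -0.02 and -0.00, beside 0.18, -0.00 and -0.11 over all genes. With silibinin against model, they were 0.160, 0.096 and 0.258, beside -0.090, 0.095 and 0.203. With phloridzin against model, they were 0.30, 0.29 and 0.28, beside -0.01, 0.15 and 0.23. After scaling, the model against control medians in these classes were -0.52, -0.46 and -0.45 for the subunit genes and -0.26, -0.45 and -0.55 over all genes. The part of level in the results was not tested, and the class of 100 to 300 FPKM holds under 20 subunit genes. By length, the all-gene median of model against control was 0.25 at 500 to 1000 bases and 0.42 at 4000 bases or more.

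**Figure D5:**
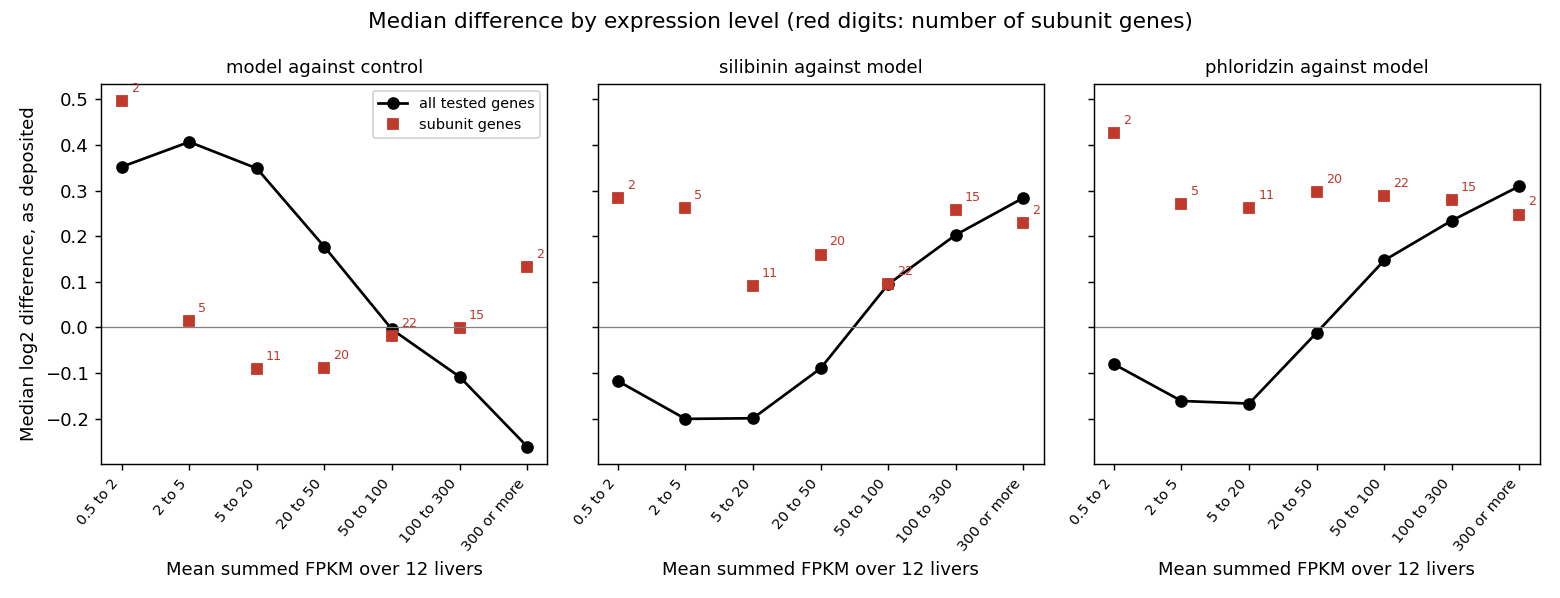
Median log2 difference of all tested genes (black) and of the subunit genes (red, with their number) by mean FPKM over the 12 livers, as deposited. From 5 FPKM up, the all-gene median goes down with level in model against control and up in both drug comparisons, and classes with under 20 subunit genes are thinly filled.

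Markers of cell types were read beside the results, as summed FPKM per liver, with every listed gene present unless stated and none at 0 in every liver. The hepatocyte list (6 genes, Alb the most abundant) summed to 14526, 22005 and 14799.5 in control livers, 15411, 24118 and 27138 in model livers, 26582, 33675 and 18005 in silibinin livers, and 22317, 29355 and 21825 in phloridzin livers, in FPKM. The stellate cell and fibroblast list (5 genes, Dcn the most abundant) summed to 69.9, 64.9 and 75.2 in control livers, 211, 209.6 and 243 in model livers, 216, 252 and 110.0 in silibinin livers, and 298, 169 and 149 in phloridzin livers, in FPKM. All CCl4 livers were above all control livers on the stellate list, while hepatocyte markers overlapped between groups as deposited. After scaling by median ratios, the median log2 differences of the 6 hepatocyte markers were -0.41, 0.45 and 0.24 for model against control, silibinin against model and phloridzin against model, beside -0.46, 0.34 and 0.46 for the subunit genes. None of the 6 passed in limma, and 3, 0 and 0 had an unadjusted p under 0.05, the 3 being lower in the model group. At that threshold and after scaling, 19.5% of all tested genes were higher and 18% lower in model against control. These shares were 13% and 13.47% for silibinin against model, and 13.4% and 13.6% for phloridzin against model. The macrophage list (5 genes, Lyz2 the most abundant) summed to 67, 124 and 115 in control livers, 229.8, 369 and 335 in model livers, 298, 384 and 249 in silibinin livers, and 428, 418 and 205 in phloridzin livers, in FPKM. The leukocyte list (4 genes, Ptprc the most abundant) summed to 5.35, 7.41 and 7.12 in control livers, 17, 22.9 and 22.5 in model livers, 12.5, 17.7 and 17.2 in silibinin livers, and 24.6, 20.3 and 15.7 in phloridzin livers, in FPKM. Both lists were above the control livers in every CCl4 liver. The endothelial list (3 genes, Kdr the most abundant) summed to 20.2, 20.2 and 25 in control livers, 28.3, 29.4 and 23.4 in model livers, 19.8, 32.5 and 14 in silibinin livers, and 26.5, 36.7 and 21.6 in phloridzin livers, in FPKM. Its groups overlapped. The cholangiocyte list (3 genes, Sox9 the most abundant) summed to 1.63, 2.84 and 1.92 in control livers, 3.67, 5.31 and 4.25 in model livers, 4.01, 3.39 and 6.56 in silibinin livers, and 5.43, 4.47 and 6.85 in phloridzin livers, in FPKM. The control livers were the lowest on the cholangiocyte list. The erythroid list (2 genes, Hbb-bs the most abundant) summed to 879, 791 and 748 in control livers, 613, 488 and 364 in model livers, 354, 306 and 185 in silibinin livers, and 179, 525 and 655 in phloridzin livers, in FPKM. Every control liver was above every other liver on it. Of 4 muscle and fat markers, 2 were in the table, and they summed to at most 0.0143 FPKM in a liver. The part of these lists in the subunit results was not tested.

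Other genes of the pathway were read from lists, as deposited and at an adjusted p under 0.05 (limma, Benjamini-Hochberg). Over all tested genes, 31.1% were higher and 3.8% lower in model against control, 2.62% and 11.4% in silibinin against model, and 2.5% and 10.4% in phloridzin against model. After scaling these shares were 13.3% and 11.8%, 5.56% and 6.48%, and 4.72% and 6.27%. The assembly factors, 46 of 48 tested, had 3 higher and 5 lower in model against control, 2 higher and 1 lower in silibinin against model and 5 higher and 1 lower in phloridzin against model, with median log2 differences of 0.05, 0.03 and 0.11. After scaling, the medians were -0.35, 0.21 and 0.24, with 0 higher and 11 lower, 7 higher and 0 lower and 8 higher and 0 lower. Sdhaf4, which helps to build complex II, had log2 differences of -0.73, 0.83 and 0.95 and passed in all 3, as did Coa6, a factor for copper delivery to complex IV, with -0.68, 0.80 and 1.18. Cox19, Ttc19 and Sdhaf2 were higher in the model group, by 0.75, 0.54 and 0.47, and Nubpl, a complex I iron-sulfur factor, was lower, at -0.78. After scaling, Cox19, Ttc19 and Sdhaf2 were not called higher. The citrate cycle genes, 14 of 14 tested, had 1 higher and 1 lower in model against control, 0 higher and 0 lower in silibinin against model and 1 higher and 0 lower in phloridzin against model, with median log2 differences of 0.14, 0.19 and 0.22. After scaling, the medians were -0.30, 0.40 and 0.40, with 0 higher and 4 lower, 2 higher and 0 lower and 2 higher and 0 lower. Cs, citrate synthase, was higher in the model group (0.83) and Fh1, fumarase, lower (-0.66), and Cs was not called higher after scaling. At an unadjusted p under 0.05, 1 citrate cycle gene was higher and 2 were lower with silibinin, beside 6.74% and 22.5% of all tested genes. The coenzyme Q genes, 13 of 13 tested, had 3 higher and 1 lower in model against control, 1 higher and 1 lower in silibinin against model and 0 higher and 1 lower in phloridzin against model, with median log2 differences of 0.11, -0.04 and 0.03. After scaling, the medians were -0.20, 0.09 and 0.18, with 2 higher and 4 lower, 3 higher and 1 lower and 4 higher and 0 lower. Coq10b was higher in the model group (1.44) and Coq8a lower (-1.31).

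Carriers and exchange genes, 13 of 14 tested, had 3 higher and 1 lower in model against control, 1 higher and 0 lower in silibinin against model and 1 higher and 0 lower in phloridzin against model, with median log2 differences of 0.22, -0.07 and 0.04. After scaling, the medians were -0.19, 0.13 and 0.21, with 1 higher and 2 lower, 2 higher and 0 lower and 3 higher and 0 lower. Slc25a4, an ADP/ATP carrier of heart and muscle, was higher in the model group at 0.92, and Etfdh, which feeds electrons from fatty acid oxidation into the quinone pool, was lower at -0.51. Regulators of mitochondrial genes, 16 of 17 tested, had 3 higher and 1 lower in model against control, 1 higher and 3 lower in silibinin against model and 1 higher and 3 lower in phloridzin against model, with median log2 differences of 0.04, 0.12 and 0.01. After scaling, the medians were -0.35, 0.30 and 0.16, with 2 higher and 3 lower, 1 higher and 3 lower and 1 higher and 3 lower. Myc and Nrf1 were higher in the model group, by 2.52 and 0.94, and lower with both drugs, at -1.94 and -0.94 with silibinin and -1.81 and -0.85 with phloridzin. Ppargc1b, a coactivator, went the other way, with -0.58, 0.72 and 0.83. Of the subunits encoded in mitochondrial DNA, 9 of 13 were tested and 0 passed in these comparisons on either scale, with 0, 1 and 1 at an unadjusted p under 0.05 in limma as deposited, beside 45.8%, 29.2% and 27.8% of all tested genes. Their medians were 0.05, 0.23 and 0.21 as deposited and -0.40, 0.45 and 0.39 after scaling. mt-Co1 was at 4925 FPKM (median of 12 livers), while mt-Atp6, mt-Atp8, mt-Nd4 and mt-Nd6 were under 1 FPKM in every liver, and levels were not compared between these genes. mt-Co3, which was tested, had a median of 0.945 FPKM over the 12 livers. How reads were assigned between these genes is not given. Such low values may therefore not reflect their RNA levels, and the medians of this set are uncertain.

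Other sets of genes, taken by name, were set beside the subunit genes, for model against control, silibinin against model and phloridzin against model in this order. The 77 subunit genes had medians of -0.03, 0.14 and 0.29 as deposited, and -0.46, 0.34 and 0.46 after scaling. Mitochondrial ribosomal protein genes (77 tested) had medians of 0.11, -0.09 and -0.03 as deposited, and -0.27, 0.09 and 0.12 after scaling. Cytosolic ribosomal protein genes (86 tested) had medians of 0.48, -0.29 and -0.01 as deposited, and 0.08, -0.08 and 0.17 after scaling. Proteasome genes (37 tested) had medians of 0.18, -0.41 and -0.16 as deposited, and -0.24, -0.20 and 0.02 after scaling. The cytosolic ribosomal set leaves out kinases and Rps19bp1 that its name rule had taken, a step added after the matches were seen. The differences between these sets were not tested.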

How the data were processed

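Total RNA of 12 livers was sequenced. The authors deposited a table of FPKM per transcript, and the submitters' processing notes name bcl2fastq, FastQC 0.11.5, HISAT2 2.1.0, StringTie 1.3.3b, DESeq 1.28.0 and mm10, without roles. How reads shared with pseudogenes or between transcripts were assigned, and whether strand was used, is not given in the sources used here, and many subunit genes have near-identical processed pseudogenes, so their levels are uncertain. FPKM was summed per symbol. Depth came from the smallest step between low values, of which 99.1% or more were whole multiples within 0.1 of a step.

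Differences were fitted with limma 3.58.1 (trend, R 4.3.3) on log2(FPKM + 1) in 1 fit of 12 livers and 6 comparisons. Benjamini-Hochberg adjustment was over 13158 genes of mean FPKM at least 0.5. The procedure was also run on simulated data with independent noise per gene and no shift in library composition. That run therefore does not test how the calls depend on the scale. Passing means an adjusted p under 0.05, and the fold cutoff adds a log2 difference past 1. Genes under the filter got an exact permutation test in scipy 1.17.1. Tables and plots used Python 3.11.15, numpy 2.4.6, pandas 2.3.3, matplotlib 3.10.9 and data.table (version 1.17.8). Alternatives were median ratios, the upper quartile, other pseudocounts and filters, the compared groups alone, a replicate block, coding or most abundant transcripts alone, and each liver left out. Ranges over them are printed only for single genes that passed, and Cox6a2 only without the filter.

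Named genes were a panel of catalytic subunits and isoform pairs, not all of which are given, the 3 largest rises and falls among genes that passed in each comparison with the model group, any that passed the fold cutoff or between the drugs, and the 3 highest and 3 lowest by mean. Other genes named, the rule for unstable estimates, the promoters and motifs, the classes by level and length, the trimmed ribosomal set and the scaled fits with a second change were chosen after their values were seen. The members and lists were chosen with earlier results of these data known. Promoters are from RefSeq, GRCm38.p6.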

Additional observations from a re-analysis of the deposited data

How the results depend on the processing

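As deposited, 2 subunit genes passed for model against control, 2 for silibinin against model, 3 for phloridzin against model, 0 for phloridzin against silibinin, 1 for silibinin against control and 4 for phloridzin against control, and counts that differ by over 1.5 times follow by setting. As deposited, Cox7a1 is in each count against control, and Cox6b2 in that of phloridzin against control. Both had control means under the filter and were tested only through their level in other groups. With median ratios the counts were 28 for model against control, 5 for silibinin against model, 15 for phloridzin against model, 0 for silibinin against control and 1 for phloridzin against control. Over all tested genes 13.3% were higher and 11.8% lower for model against control, 5.56% were higher and 6.48% lower for silibinin against model, 4.72% were higher and 6.27% lower for phloridzin against model, 3.18% were higher and 1.16% lower for silibinin against control, 4.27% were higher and 1.64% lower for phloridzin against control with median ratios. The upper quartile gave 20 for model against control, 12 for silibinin against model, 16 for phloridzin against model and 2 for phloridzin against control. Over all tested genes 14.5% were higher and 10.2% lower for model against control, 6.35% were higher and 5.74% lower for silibinin against model, 5.09% were higher and 6.16% lower for phloridzin against model, 4.07% were higher and 0.798% lower for silibinin against control, 5.18% were higher and 1.19% lower for phloridzin against control with the upper quartile. A pseudocount of 0.1 gave 2 for silibinin against control. With no filter on low values there were 1 for phloridzin against model and 0 for silibinin against control. The 1 was Cox6a2, which was lower, while Ndufa9, Ndufv2 and Sdhd did not pass for phloridzin against model. A mean of at least 5 FPKM left fewer genes tested. It gave 1 for model against control, 7 for phloridzin against model, 0 for silibinin against control and 2 for phloridzin against control. Fitting only the 2 compared groups gave 1 for model against control, 1 for silibinin against model, 0 for phloridzin against model, 2 for silibinin against control and 0 for phloridzin against control. Coding transcripts alone gave 1 for model against control, 1 for phloridzin against model and 0 for silibinin against control. The most abundant transcript of each gene alone gave 0 for model against control, 1 for silibinin against model, 0 for phloridzin against model, 0 for silibinin against control and 1 for phloridzin against control. A log2 difference past 1 left 0 for model against control, 0 for silibinin against model, 0 for phloridzin against model, 0 for silibinin against control and 1 for phloridzin against control. At an adjusted p under 0.1 there were 4 for model against control, 15 for phloridzin against model, 3 for silibinin against control and 11 for phloridzin against control. Of the 4, Cox7a1 and Ndufa10 were higher and Ndufb11 and Atp5s lower. In this section, shares of all tested genes are given only for median ratios, the upper quartile and an unadjusted p under 0.05. Counts of other settings carry none here, so they are not read against the calls in all genes. At an unadjusted p under 0.05 limma gave 6 for model against control, 5 for silibinin against model, 20 for phloridzin against model, 2 for phloridzin against silibinin, 8 for silibinin against control and 27 for phloridzin against control. The shares of all tested genes at that threshold were 45.8% for model against control, 29.2% for silibinin against model, 27.8% for phloridzin against model, 3.75% for phloridzin against silibinin, 21.5% for silibinin against control, 24.6% for phloridzin against control. The median log2 difference over the subunit genes with median ratios was -0.46 for model against control, 0.34 for silibinin against model, -0.090 for silibinin against control and 0.048 for phloridzin against control. With the upper quartile, this median log2 difference was -0.41 for model against control, 0.37 for silibinin against model and 0.47 for phloridzin against model. It was -0.0096 for silibinin against control, where it was above 0 as deposited, and 0.11 for phloridzin against control. Ratios of mean summed FPKM with median ratios that moved by over 1 SD were 0.667 for complex I from model to control, 1.3 for complex I from silibinin to model, 0.70 for complex II from model to control, 1.46 for complex II from silibinin to model, 0.743 for complex III from model to control, 1.27 for complex III from silibinin to model, 0.768 for complex IV from model to control, 1.22 for complex IV from silibinin to model, 1.27 for complex IV from phloridzin to model, 0.758 for complex V from model to control and 1.34 for complex V from silibinin to model. Ndufa10 in model against control turned to -0.033 with median ratios, -0.55 with coding transcripts only and -0.55 with the most abundant transcript only. Leaving out each liver in turn, the counts ranged from 0 to 5 for model against control, 0 to 3 for silibinin against model, 0 to 8 for phloridzin against model, 0 to 2 for silibinin against control, 0 to 6 for phloridzin against control. Leaving out the 6 genes with unstable estimates, a setting chosen after seeing the data, could not move the counts at an adjusted p under 0.05 as deposited, since none of them was called. The counts at an unadjusted p under 0.05 hold Ndufa12 for silibinin against model and against control, Ndufa3 for phloridzin against model, silibinin and control, and Ndufb7 for phloridzin against model and silibinin. Ndufa3 is also in the counts at an adjusted p under 0.1 for phloridzin against model and control. The scaled fits with a second change were also chosen after seeing the data. The cause of these moves was not tested.

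The replicate numbers follow the sample titles. Deviations of same-numbered livers from their group means had correlations across genes from -0.09 to 0.10, and 1 of 18 was over 0.1. Those of different-numbered livers ran from -0.17 to 0.15. With 3 livers per group, this cannot show whether livers were paired. The numbers in the deposited column names mostly differ from the replicate numbers and were not tested as pairs. With the replicate number as a block the counts were 1 for model against control, 0 for silibinin against model, 1 for phloridzin against model and 0 for silibinin against control.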
